A study of Mus musculus with 22 samples.

Results

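The mRNA decay machinery was described here as 63 of the 24061 genes counted in the nucleus accumbens of the mouse. They were chosen by name: every gene whose symbol is Cnot, Exosc, Smg or Lsm followed by a digit, plus Xrn1, Xrn2, Dcp1a, Dcp1b, Dcp2, Dcps, Edc3, Edc4, Ddx6, Pan2, Pan3, Parn, Upf1, Upf2, Upf3a, Upf3b, Dis3, Dis3l, Dis3l2, Skiv2l, Ttc37, Patl1, Zfp36l1 and Zfp36l2. A mean of at least 1 CPM over the 22 libraries was required, where CPM is a gene's share of the counts assigned to genes, scaled for library composition. All 63 genes with such a name met this requirement, and all 63 passed the low-count filter of the tests. The CCR4-NOT subunit Cnot9 is listed under its older symbol Rqcd1, so the rule does not take it in, and it is counted below among partner genes.

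The tissue came from male C57BL/6J mice 7 to 9 weeks old, raised conventionally in a specific pathogen-free colony and housed in groups, which holds for every group. The nucleus accumbens lies in the ventral striatum and serves reward and motivation. The libraries fall into antibiotic mice given morphine (n = 5), water mice given morphine (n = 5), antibiotic mice given saline (n = 6) and water mice given saline (n = 6). Antibiotic mice received antibiotics that the gut does not absorb, and the labels call their microbiome depleted. The labels do not name the agents. Morphine was given at 20 mg/kg per day for 7 days. The series asks how a depleted gut microbiome changes the response of the brain to morphine.

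Counts assigned to genes ranged from 9357299 to 15330947 per library. The tissue label was checked on 10 genes of striatal projection neurons, none of which was at 0 over all libraries, and whose summed level lay between 3113 and 7384 CPM per library. The summed level of 10 cortical and septal neuron genes ranged from 296 to 1592 CPM. It was highest in library 5 of the antibiotic mice given saline (1592 CPM) and library 4 of the water mice given morphine (1313 CPM). Their striatal sums, 3113 and 3896 CPM, were the lowest. Whether the dissection differed was not tested. Library 6 of the antibiotic mice given saline stood apart, with 15.4% of its counts outside annotated genes and 2463 CPM of the nuclear RNA Malat1. Library 4 of the antibiotic mice given morphine had the next highest Malat1 level, 1007 CPM. Without both, 8 of the 63 decay genes passed edgeR's test for morphine in antibiotic mice (12.7%, against 10.7% of all genes in that fit) and 6 for morphine in water mice (9.52%, against 6.96%). For antibiotics 0 passed under saline, against 0.507% of all genes, and 11 under morphine (17.5%, against 14.5%). The titles number the libraries but do not state that each is a separate animal, so p-values measure the spread between these libraries. The samples are bulk tissue, in which fewer cells of a type and less RNA per cell cannot be told apart.

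Most messenger RNAs in animal cells are destroyed after their poly(A) tail is shortened. The PAN2-PAN3 and CCR4-NOT complexes remove the tail, DCP2 and its enhancers then remove the 5′ cap, and the exonuclease XRN1 degrades the body from the 5′ end. Alternatively the exosome, helped in the cytoplasm by the Ski complex, degrades it from the 3′ end. Nonsense-mediated decay uses UPF and SMG proteins to send transcripts with a premature or otherwise exposed stop codon down these routes, and in neurons it is known to limit the activity-dependent mRNA Arc.

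Every branch of the machinery was expressed in the accumbens. Levels of different genes were compared per length, as the mean CPM over 22 libraries per kilobase of the longest protein-coding transcript. Lsm14b, a translational repressor of RNA granules that binds Ddx6, had the highest level at 53.4 CPM per kb. Lsm4, a subunit of the ring that binds the end of a deadenylated tail, had 38.8. Smg5, which brings decay enzymes to phosphorylated Upf1, had 37.1, and the helicase Ddx6, a decapping activator and repressor of translation, 35.8. The catalytic deadenylase Cnot8 had 31.4. At the other end of the scale stood Lsm11, a subunit of the U7 particle that processes histone mRNA, at 2.18 CPM per kb. The decay enzymes Xrn1 and Dis3 had 2.46 and 2.85, and Ttc37, the scaffold of the Ski complex, 3.22. The nuclear 5′ exonuclease Xrn2 had 21.1 CPM per kb and the nuclear 3′ exonuclease Exosc10 24.1. The median coefficient of variation of the 63 genes was 6.66% in antibiotic mice given morphine, 7.01% in water mice given morphine, 7.85% in antibiotic mice given saline and 7.2% in water mice given saline. The highest coefficients were those of Lsm5 in antibiotic mice given morphine (20.8%), Exosc6 in water mice given morphine (19.4%) and Lsm11 in both saline groups (29.6% in antibiotic and 26.3% in water mice).

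**Figure D1:**
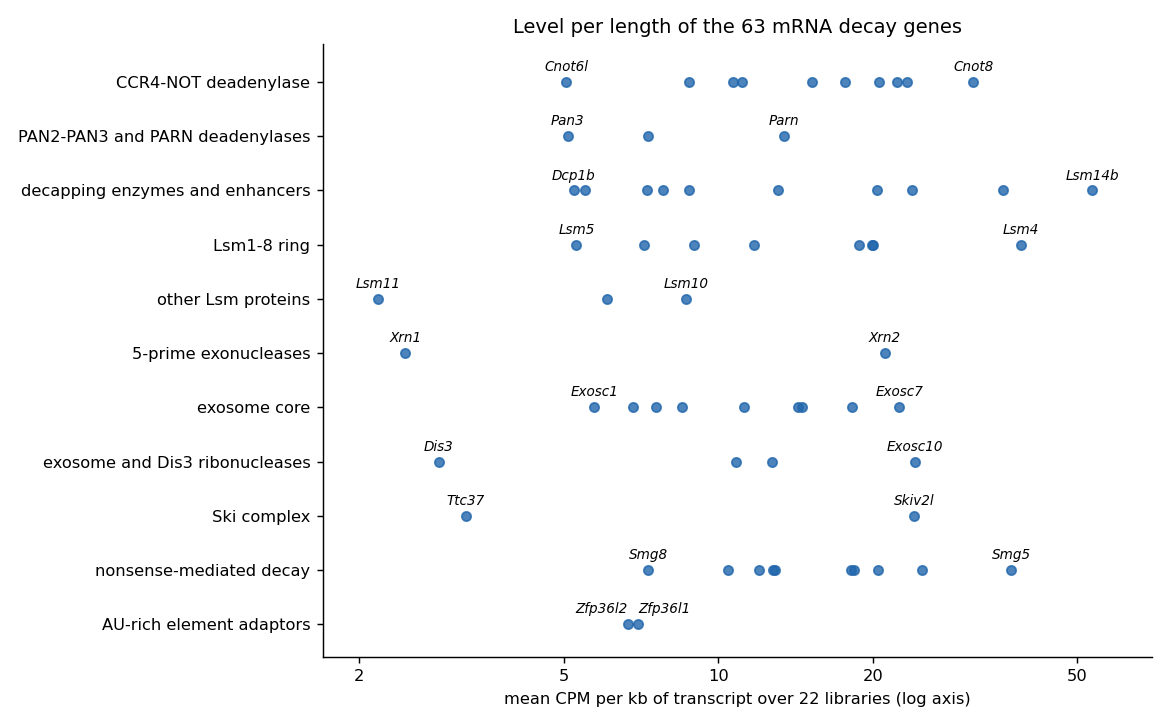
Each point is 1 of the 63 mRNA decay genes, placed by its mean CPM per kilobase of transcript over 22 libraries (horizontal log axis) in the row of its complex, with the lowest and highest gene of each row named. Lsm11, Xrn1, Dis3 and Ttc37 lie lowest, between 2.18 and 3.22 CPM per kb, and Lsm14b lies highest at 53.4.

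Morphine in antibiotic mice was accompanied by higher levels of 1 of 2 Xrn exonuclease genes and 1 of 4 exosome and Dis3 ribonuclease genes. Xrn1 and Dis3 rose most, and the deadenylase Pan2, the decapping scaffold Edc4, the CCR4-NOT scaffold Cnot1, the Ski scaffold Ttc37 and the nonsense-mediated decay factors Upf3b and Smg1 rose with them, while the exosome subunit Exosc5 fell. In all 9 of 63 decay genes (14.3%) passed edgeR's quasi-likelihood test at a Benjamini-Hochberg adjusted p under 0.05, where 13.0% of all 14564 genes tested passed. By direction, 8 were higher (12.7% of the decay genes, 6.43% of all genes) and 1 was lower (1.59%, against 6.62%). The groups did not overlap for 6 decay genes, each higher with morphine, and 3.14% of all genes were higher without overlap. At an unadjusted p under 0.05 stood 19 decay genes, where 27.6% of all genes did. The median log2 change of the 63 genes was 0.05, and that of all genes -0.00. Without library 3 of the antibiotic mice given morphine 5 decay genes passed.

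In water mice morphine was accompanied by higher Xrn1, Cnot1, Ttc37 and the decapping enzyme Dcp2, and by lower Smg9 and Upf3a, factors of nonsense-mediated decay. These 6 of 63 decay genes (9.52%) compare with 6.58% of all genes tested. The 4 higher genes were 6.35% of the list, against 3.91% of all genes, and the 2 lower genes 3.17%, against 2.67%. Groups did not overlap for 3 higher genes and 1 lower gene, and the shares over all genes were 3.10% and 2.73%. At an unadjusted p under 0.05 stood 15 decay genes, where 22.7% of all genes did. The median log2 change of the 63 genes was -0.01, and that of all genes -0.00.

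Between both groups given morphine, antibiotics were accompanied by the most changes of the 4 comparisons. Smg9, Edc4, Dis3, Xrn1, Pan2, Exosc1, Upf3b, Smg5, Cnot11 and Cnot6 were higher in antibiotic mice given morphine than in water mice given morphine, and Dcps, Cnot2 and Exosc5 were lower. These 13 of 63 genes (20.6%) compare with 18.0% of all genes. Higher genes were 15.9% of the list, against 8.42% of all genes, and lower genes 4.76%, against 9.58%. Groups did not overlap for 9 higher and 2 lower decay genes, against 6.26% and 6.82% of all genes. At an unadjusted p under 0.05 stood 25 decay genes, where 31.3% of all genes did. The median log2 change of the 63 genes was 0.05, and that of all genes 0.00. Without library 3 of the antibiotic mice given morphine, or without library 6 of the water mice given morphine, 8 decay genes passed.

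Under saline, antibiotic and water mice differed past the threshold at 0 of 63 decay genes by edgeR, where 1.41% of all genes passed. DESeq2 and limma-voom each called 0 as well. At an unadjusted p under 0.05 stood 14 decay genes, where 17.3% of all genes did. Groups did not overlap for 0 decay genes in either direction, against 0.632% of all genes higher and 1.01% lower. Dcp1a, a cofactor of the decapping enzyme, came nearest, with a log2 change of 0.20 ± 0.062 (edgeR adjusted p = 0.0965). Over the 4 comparisons 18 of the 63 genes passed at least once, 9 of them in a single comparison, 8 in exactly 2 and 1, Xrn1, in 3. The same pattern was not counted over all genes, so these counts cannot be set against a background share. The comparisons share groups and so are not independent of each other.

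**Figure D2:**
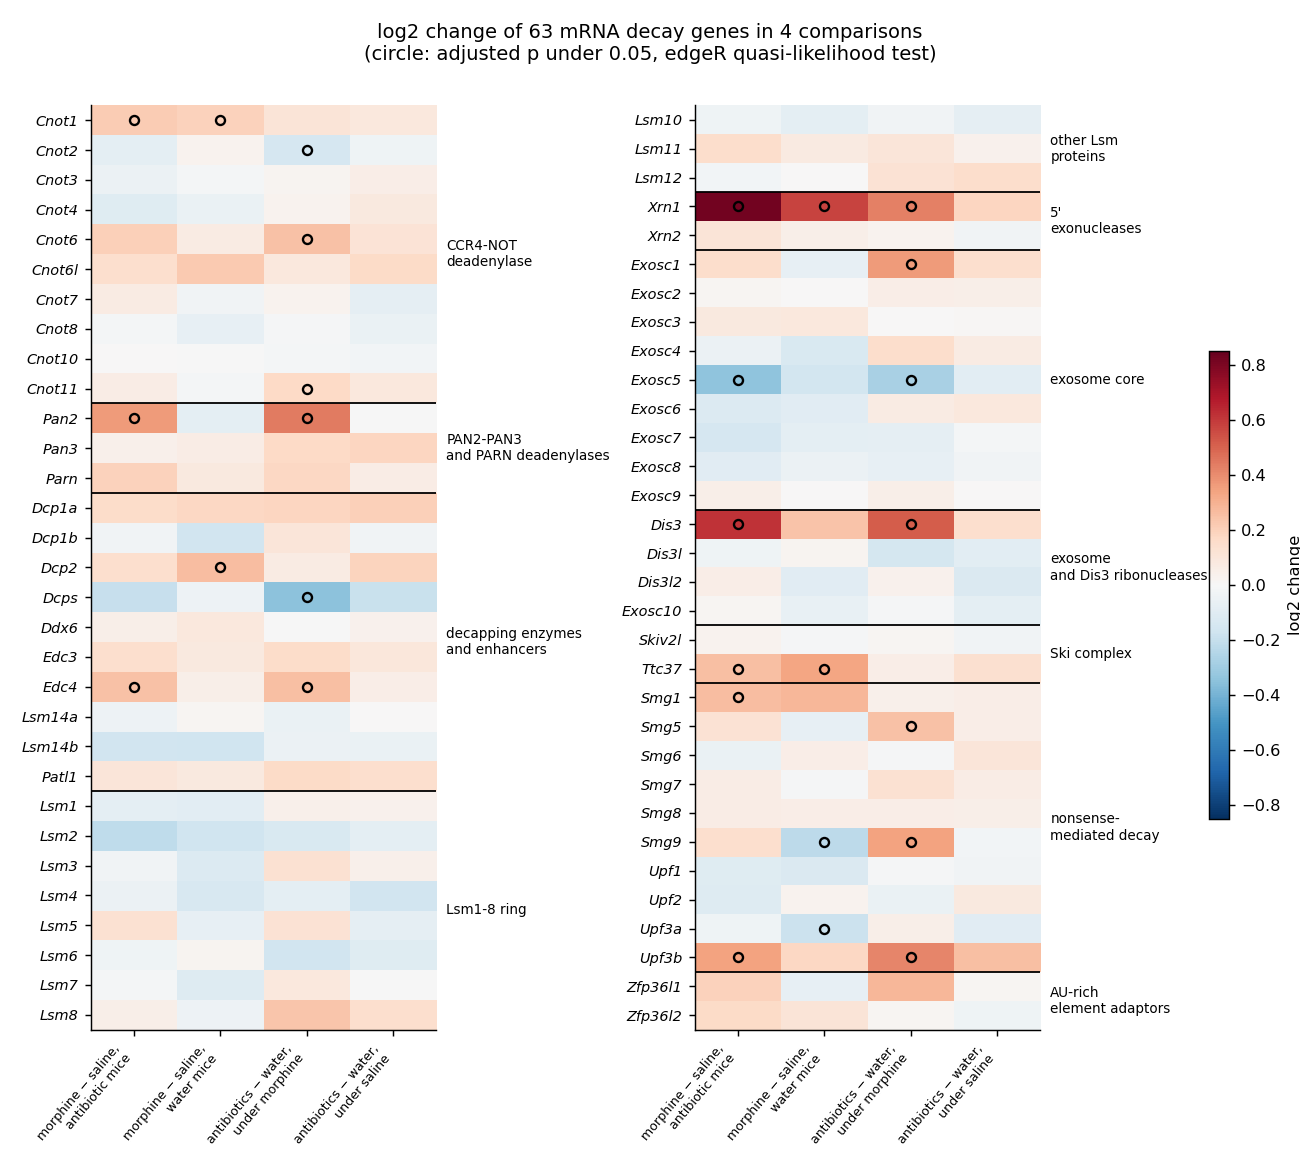
Colour gives the log2 change of each of the 63 genes (rows, by complex) in 4 comparisons (columns), red for higher and blue for lower, and a circle marks an adjusted p under 0.05. Circles stand in 9, 6 and 13 cells of the columns for morphine in antibiotic mice, morphine in water mice and antibiotics under morphine, and in 0 cells of the column for antibiotics under saline.

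The upstream bases of Smg9, Edc4, Dis3 and Xrn1 are shown because these 4 genes had the smallest p of the list between both groups given morphine. They are the 250 bases before the annotated start, 5′ to 3′ on the gene's strand, from RefSeq (GRCm38.p6). Capitals mark GGGCGG, a box bound by SP and KLF factors, CCGGAAG, an ETS box, and CCAAT, bound by NF-Y, each as written or as its reverse complement. Xrn1 is at chr9:95954510-95954759 (plus strand), Dis3 at chr14:99099771-99100020 (minus strand), Edc4 at chr8:105880631-105880880 (plus strand) and Smg9 at chr7:24399378-24399627 (plus strand).
Xrn1: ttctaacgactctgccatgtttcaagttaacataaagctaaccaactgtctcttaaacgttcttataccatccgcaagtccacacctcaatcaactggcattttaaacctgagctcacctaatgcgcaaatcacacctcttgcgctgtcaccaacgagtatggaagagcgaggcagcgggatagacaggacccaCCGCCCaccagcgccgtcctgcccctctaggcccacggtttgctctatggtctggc
Dis3: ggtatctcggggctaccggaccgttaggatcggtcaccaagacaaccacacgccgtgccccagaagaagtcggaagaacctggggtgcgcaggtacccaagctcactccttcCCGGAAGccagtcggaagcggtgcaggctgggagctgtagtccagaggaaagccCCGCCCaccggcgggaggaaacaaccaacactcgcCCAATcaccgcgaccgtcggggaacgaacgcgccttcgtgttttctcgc
Edc4: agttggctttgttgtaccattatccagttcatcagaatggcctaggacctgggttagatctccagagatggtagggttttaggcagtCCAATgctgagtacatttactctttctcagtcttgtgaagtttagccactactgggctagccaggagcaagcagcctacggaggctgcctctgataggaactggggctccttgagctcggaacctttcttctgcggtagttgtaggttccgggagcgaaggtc
Smg9: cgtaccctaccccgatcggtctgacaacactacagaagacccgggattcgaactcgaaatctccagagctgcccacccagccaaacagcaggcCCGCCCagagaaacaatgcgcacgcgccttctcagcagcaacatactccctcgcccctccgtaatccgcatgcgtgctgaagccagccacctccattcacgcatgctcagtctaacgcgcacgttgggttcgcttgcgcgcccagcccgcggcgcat

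No box was present in all 4 of these windows. GGGCGG stood in Xrn1, Dis3 and Smg9, and CCAAT in Dis3 and Edc4. RefSeq listed an upstream window for 51 of the 63 genes, and their median GC content was 61.6%, against 52.0% over 27025 genes with a window of the same length. Where a gene had several windows, the first listed was used. For 42 of the 51 genes the bases after the start were found in a transcript of the gene, and all 51 were kept. GGGCGG was found on either strand in 33 of 51 windows (64.7%), against 32.9% of all windows, and CCAAT in 20 (39.2%), against 34.5%. CCGGAAG was found in 7 (13.7%, against 7.05%) and the E-box CACGTG in 2 (3.92%, against 6.05%). TGACGTCA, the cAMP response element, and AGAACA, a box of the glucocorticoid receptor, were found in 0 windows of the list, against 1.62% and 16.2% of all windows. The motifs do not contain each other. Of the 12 genes with a window that were higher in at least 1 comparison, 8 held GGGCGG and 8 held CCAAT. A match is a description of letters, not a site of binding.

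Among the deadenylase genes, Pan2, Cnot1, Cnot6, Cnot11 and Cnot2 passed in at least 1 comparison. Pan2, the catalytic subunit of PAN2-PAN3, which begins tail shortening, had 37.6, 39.4, 41.0, 42.0 and 38.0 CPM in antibiotic mice given morphine. It had 25.6, 32.8, 29.2, 31.7 and 26.4 CPM in water mice given morphine, and 24.1, 30 and 40.6 CPM as lowest, median and highest value in antibiotic mice given saline. In water mice given saline these were 29.6, 29.9 and 34.6 CPM. The antibiotic mice given morphine all lay above the water mice given morphine, and library 3 of the antibiotic mice given saline, at 40.6 CPM, reached into their range. Pan2 was 1.36-fold higher in antibiotic mice under morphine (log2 change 0.44 ± 0.105, edgeR adjusted p = 0.0048) and 1.28-fold higher with morphine in antibiotic mice (0.36 ± 0.10, edgeR adjusted p = 0.0207). The call for morphine was lost without library 3 or 4 of the antibiotic mice given morphine, or without library 1 of those given saline (edgeR adjusted p up to 0.0571). It was also lost in a fit of those groups alone (edgeR adjusted p = 0.0707), and with each library's length slope, that of its log2 levels on transcript length, as a covariate the change was 0.46 (edgeR adjusted p = 0.122). The slope did not overlap between morphine and saline in water mice. For every gene, this covariate therefore cannot tell treatment and slope apart there. In water mice the morphine change of Pan2 without the covariate was -0.08 (95% interval -0.29 to 0.13).

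Pan3, the adaptor that ties Pan2 to its targets, had log2 changes of 0.17 ± 0.075 under morphine and 0.19 ± 0.07 under saline for antibiotics, which did not pass (edgeR adjusted p = 0.125 and 0.166). Parn, a deadenylase that trims the tails of noncoding and messenger RNAs, averaged 43.6 ± 4.45 CPM in antibiotic mice given morphine and 38.1 ± 3.16 CPM in antibiotic mice given saline (SD, n = 5 and 6). This difference did not pass (log2 change 0.19 ± 0.072, edgeR adjusted p = 0.0772).

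Cnot1, the scaffold that holds CCR4-NOT together, rose with morphine in both kinds of mice. It had 168, 160.3, 160.5, 168 and 172 CPM in antibiotic mice given morphine and 151, 148, 157, 159 and 154 CPM in water mice given morphine. The lowest, median and highest values were 129.7, 146 and 150.4 CPM in antibiotic mice given saline and 124, 136 and 139 CPM in water mice given saline. Morphine libraries lay above saline libraries in antibiotic mice and in water mice without overlap. The change was 1.16-fold in antibiotic mice (log2 change 0.22 ± 0.041, edgeR adjusted p = 0.00165) and 1.15-fold in water mice (0.20 ± 0.041, edgeR adjusted p = 0.00789), and both calls held without any 1 of the 11 libraries. Neither held with the length slope of each library as a covariate, where the change was 0.12 in antibiotic mice (edgeR adjusted p = 0.258) and 0.059 in water mice (edgeR adjusted p = 0.88).

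The remaining CCR4-NOT subunits moved in no common direction, some by as much as Cnot1. Cnot6l, a catalytic deadenylase, had a log2 change of 0.22 ± 0.074 with morphine in water mice, which did not pass (edgeR adjusted p = 0.074). Cnot6, a catalytic deadenylase, averaged 73.0 ± 4.72 CPM in antibiotic mice given morphine and 61.5 ± 5.88 CPM in water mice given morphine (SD, n = 5 each), 1.19-fold higher (edgeR adjusted p = 0.0488). Cnot11, which docks on the Cnot1 N-terminus, averaged 39.8 ± 3.05 CPM in antibiotic mice given morphine and 35.4 ± 2.47 CPM in water mice given morphine (edgeR adjusted p = 0.0481). Both calls were at the edge of the threshold, and were lost without any 1 of 8 and of 7 of the 10 libraries (edgeR adjusted p up to 0.138 and 0.124). Cnot2, a structural subunit, was lower, with 53.2, 54.2, 52.5, 55.7 and 54.9 CPM in antibiotic mice given morphine and 59.5, 57.8, 57.9, 60.4 and 63.6 CPM in water mice given morphine. Its groups did not overlap (log2 change -0.14 ± 0.042, edgeR adjusted p = 0.0198), and it did not pass without library 3 of the antibiotic mice or library 6 of the water mice (edgeR adjusted p up to 0.0649). The catalytic subunits Cnot7 and Cnot8 had log2 changes between -0.07 and 0.07 in the 4 comparisons, and did not pass in any.

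**Figure D3:**
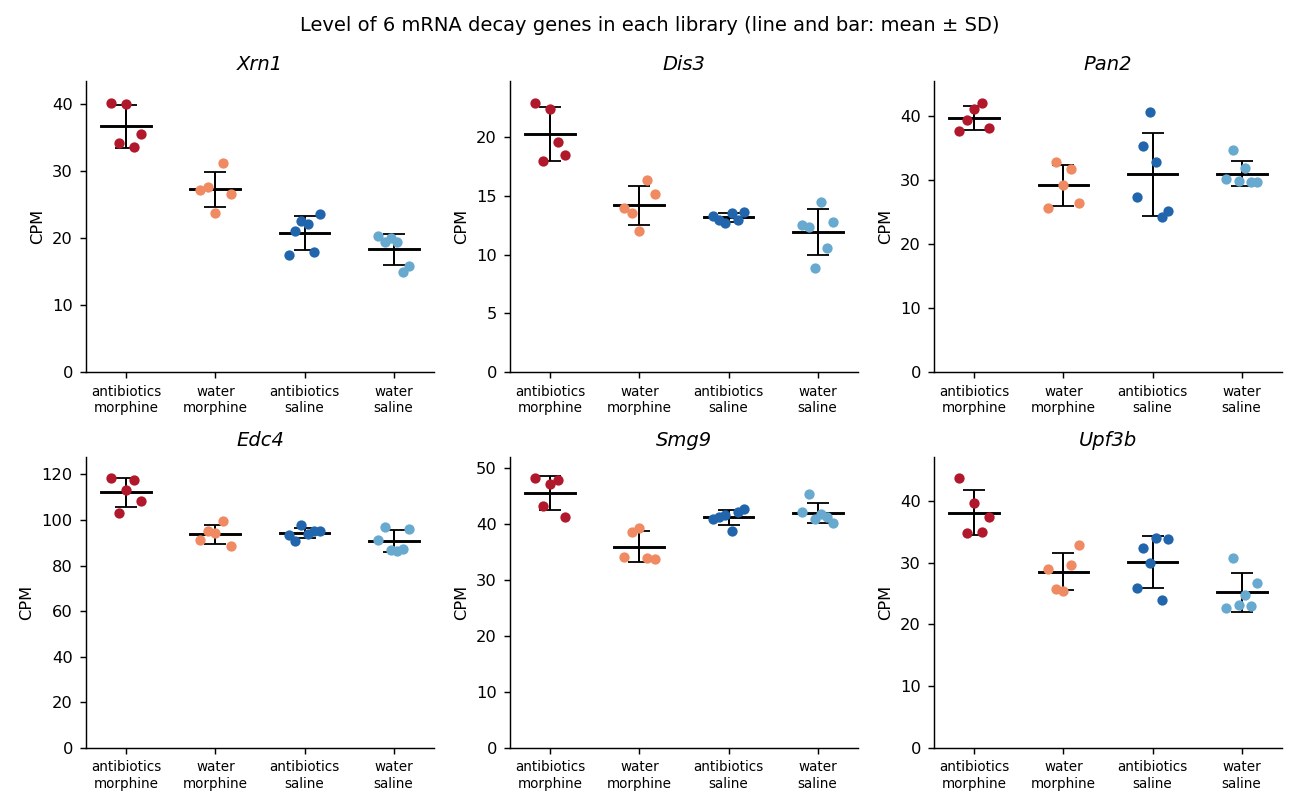
CPM of Xrn1, Dis3, Pan2, Edc4, Smg9 and Upf3b in each of the 22 libraries (points), with the group mean and SD (line and bar, n = 5, 5, 6 and 6 from left to right) on axes that start at 0. For each of the 6 genes the antibiotic mice given morphine lie above all water mice given morphine, for example at 33.6 to 40.3 CPM of Xrn1 against 23.8 to 31.2.

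Among decapping factors, the scaffold Edc4 was higher and the scavenger Dcps lower in antibiotic mice given morphine than in water mice given morphine. Edc4, which joins Dcp2 to Dcp1a and Xrn1, had 118, 103, 113, 118 and 109 CPM in antibiotic mice given morphine and 91.1, 95.3, 94.1, 99.6 and 88.4 CPM in water mice given morphine. In antibiotic mice given saline it ranged from 90.6 over a median of 94.4 to 97.7 CPM, and in water mice given saline from 86.4 over 89.2 to 96.7 CPM. The antibiotic mice given morphine lay above every other library. Edc4 was 1.2-fold higher than in water mice given morphine (log2 change 0.26 ± 0.046, edgeR adjusted p = 0.000464) and 1.19-fold higher than in antibiotic mice given saline (0.25 ± 0.045, edgeR adjusted p = 0.000975). The change against saline remained 0.25 with the length slope as a covariate and missed the threshold (edgeR adjusted p = 0.057). In water mice the morphine change was 0.05 (95% interval -0.04 to 0.14). Of the exonic bases of Edc4, 8.3% are also annotated to Nrn1l on the same strand.

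Dcps hydrolyses the cap that remains after decay from the 3′ end. It had 16.7, 17.6, 16.5, 14.4 and 14.4 CPM in antibiotic mice given morphine and 21.9, 21.8, 18.4, 18.9 and 20.3 CPM in water mice given morphine, with no overlap (log2 change -0.35 ± 0.089, edgeR adjusted p = 0.00863). Its change with morphine in antibiotic mice, -0.19, did not pass (edgeR adjusted p = 0.143). Dcp2, the enzyme that cleaves the cap of intact mRNA, averaged 79.2 ± 5.47 CPM in water mice given morphine and 66.0 ± 4.95 CPM in water mice given saline (SD, n = 5 and 6). It ranged there from 72.9 to 87.1 CPM with morphine and from 59.0 to 72.9 CPM with saline, so that the groups met at 72.9 CPM (log2 change 0.26 ± 0.065, edgeR adjusted p = 0.018). The direction turned with the length slope as a covariate, to -0.029 (edgeR adjusted p = 0.96). In antibiotic mice its change was 0.14 ± 0.065 (edgeR adjusted p = 0.151).

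The abundant repressors of the granules in which decapping factors gather did not pass in any comparison. Ddx6 averaged 223 ± 4.22 CPM in antibiotic mice given morphine, 223 ± 7.01 in water mice given morphine, 215 ± 5.37 in antibiotic mice given saline and 210 ± 12.8 in water mice given saline. Lsm14b averaged 126 ± 6.85, 131 ± 10.4, 141 ± 11.3 and 147 ± 8.86 CPM in the same groups. Its morphine changes, -0.16 ± 0.059 in antibiotic mice and -0.17 ± 0.059 in water mice, missed the threshold (edgeR adjusted p = 0.0738 and 0.083). None of the 8 genes Lsm1 to Lsm8, grouped here as a list rather than as a single ring, passed in the 4 comparisons by edgeR. An unadjusted p under 0.05 was held by 1 of them with morphine in water mice and 0 in antibiotic mice (22.7% and 27.6% of all genes). For antibiotics it was held by 1 under saline and 2 under morphine (17.3% and 31.3% of all genes). With morphine in water mice the median log2 change of these 8 genes was -0.10, and they lay at percentiles 30.1 to 72.5 of all genes in their length deciles. Lsm4 had the smallest p of the 8, for antibiotics under saline (log2 change -0.17 ± 0.053, edgeR adjusted p = 0.116), and Lsm6 averaged between 41.8 and 46.9 CPM over the 4 groups. Lsm10, Lsm11 and Lsm12, outside this list, did not pass either, and the smallest p among them was that of Lsm12 for antibiotics under saline (log2 change 0.15 ± 0.07, edgeR adjusted p = 0.272).

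The 5′ exonuclease Xrn1 had the largest morphine change of the list in antibiotic mice and in water mice. Xrn1 degrades decapped mRNA in the cytoplasm. It had 40.3, 34.2, 40.1, 33.6 and 35.5 CPM in antibiotic mice given morphine and 27.1, 27.7, 23.8, 31.2 and 26.6 CPM in water mice given morphine. The lowest, median and highest values were 17.5, 21.6 and 23.6 CPM in antibiotic mice given saline and 15, 19.5 and 20.3 CPM in water mice given saline. Every library given morphine lay above every library given saline, and every antibiotic library given morphine above every water library given morphine, while the saline groups overlapped.

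With morphine Xrn1 was 1.76-fold higher in antibiotic mice (log2 change 0.82 ± 0.092, edgeR adjusted p = 2.38e-05) and 1.49-fold higher in water mice (0.57 ± 0.094, edgeR adjusted p = 0.00188). Antibiotics under morphine were accompanied by a 1.35-fold higher level (0.43 ± 0.094, edgeR adjusted p = 0.0027), and under saline by a change of 0.18 (95% interval -0.01 to 0.37, edgeR adjusted p = 0.309). The difference between both morphine changes was 0.25 (95% interval -0.03 to 0.52, edgeR adjusted p = 0.459). Each of the 3 calls held without any 1 of the libraries compared. With the length slope as a covariate the morphine change was 0.63 in antibiotic mice (edgeR adjusted p = 0.0184) and 0.30 in water mice, where the call was lost (edgeR adjusted p = 0.721). Up to 3.2% of the exonic bases of Xrn1 are shared with an antisense gene. Xrn2, the exonuclease of the nucleus, stayed between 66.4 and 80.3 CPM in all 22 libraries, and its largest change, 0.11 ± 0.044 with morphine in antibiotic mice, did not pass (edgeR adjusted p = 0.0945).

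On the 3′ side, the ribonuclease Dis3 rose in antibiotic mice given morphine while most of the exosome core showed no change past the threshold. Dis3, the catalytic subunit of the nuclear exosome, had 23.0, 18.0, 22.4, 19.6 and 18.5 CPM in antibiotic mice given morphine and 14.0, 13.5, 12, 16.4 and 15.2 CPM in water mice given morphine. Antibiotic mice given saline ranged from 12.7 over a median of 13.2 to 13.7 CPM, and water mice given saline from 8.83 over 12.5 to 14.5 CPM. The antibiotic mice given morphine lay above all others, and the other 3 groups overlapped. Dis3 was 1.53-fold higher than in antibiotic mice given saline (log2 change 0.62 ± 0.10, edgeR adjusted p = 0.000448) and 1.43-fold higher than in water mice given morphine (0.51 ± 0.103, edgeR adjusted p = 0.00127). The morphine change in antibiotic mice was 0.56 with the length slope as a covariate and just missed the threshold (edgeR adjusted p = 0.0587). In water mice the morphine change was 0.24 (95% interval 0.03 to 0.46, edgeR adjusted p = 0.15). The paralogs Dis3l, a cytoplasmic exosome nuclease, and Dis3l2, which degrades uridylated RNA, did not pass in any comparison, nor did Exosc10, which averaged between 65.7 and 69.7 CPM over the groups.

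Of the 9 genes of the exosome core, the ring that leads RNA to these nucleases, 2 passed. Exosc1, a cap subunit, had 16.1, 15.6, 15.1, 15.2 and 13.4 CPM in antibiotic mice given morphine and 13.3, 10.5, 12.1, 12 and 10.9 CPM in water mice given morphine, just without overlap (log2 change 0.36 ± 0.086, edgeR adjusted p = 0.0049). Exosc5, a subunit of the ring's barrel, had 11.3, 11.6, 9.35, 12.4 and 13.9 CPM in antibiotic mice given morphine and 15.3, 15.6, 12.2, 14.3 and 14.0 CPM in water mice given morphine, and ranged from 13.6 to 15.9 CPM in antibiotic mice given saline. Its groups overlapped in both comparisons (-0.34 ± 0.093 with morphine in antibiotic mice, edgeR adjusted p = 0.018, and -0.28 ± 0.096 for antibiotics under morphine, edgeR adjusted p = 0.0457). Without library 3 of the antibiotic mice given morphine, the lowest at 9.35 CPM, neither call held (edgeR adjusted p = 0.0649 and 0.138), and the one under morphine was lost without any 1 of 8 of 10 libraries. With the length slope as a covariate the changes were -0.33 and -0.28, and neither passed (edgeR adjusted p = 0.243 and 0.0513). Exosc9, another barrel subunit, had group means between 29.2 and 30.3 CPM. The exons of Exosc6 lie wholly inside those annotated to Aars, so that its counts are uncertain. Without a stated strand setting, reads of genes on the other strand cannot be told apart either, and such genes cover 4.2% of the exonic bases of Dis3, 5.7% of Exosc5, 5.7% of Cnot2, 7.6% of Dcps and 55.9% of Zfp36l1.

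Ttc37 feeds cytoplasmic mRNA into the exosome as part of the Ski complex. It had 24.6, 24.3, 26.4, 24.2 and 27.9 CPM in antibiotic mice given morphine, 23.4, 23.5, 24.6, 26.1 and 25.2 CPM in water mice given morphine, 17.7, 21.6 and 23.9 CPM as lowest, median and highest value in antibiotic mice given saline, and 18.2, 19.4 and 20.7 CPM in water mice given saline. Morphine libraries lay above saline libraries in both kinds of mice. The change was 1.26-fold in water mice (log2 change 0.34 ± 0.066, edgeR adjusted p = 0.00505) and 1.19-fold in antibiotic mice (0.25 ± 0.066, edgeR adjusted p = 0.0143), and the call in antibiotic mice was lost without library 5 of the antibiotic mice given morphine (edgeR adjusted p = 0.0538) and in a fit of those groups alone (edgeR adjusted p = 0.0554). With the length slope as a covariate the change was 0.14 in antibiotic and 0.17 in water mice, and neither passed (edgeR adjusted p = 0.505 and 0.783). Its partner Skiv2l, the helicase of the complex, averaged between 93.8 and 95.9 CPM in the 4 groups.

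Smg9 was the gene whose morphine change differed between antibiotic and water mice. With Smg8 it holds the kinase Smg1 in check until a premature stop codon is found. It had 48.1, 43.1, 47.1, 47.8 and 41.3 CPM in antibiotic mice given morphine and 34.1, 38.5, 39.3, 33.9 and 33.6 CPM in water mice given morphine. Antibiotic mice given saline ranged from 38.7 over a median of 41.4 to 42.6 CPM and water mice given saline from 40.1 over 41.5 to 45.3 CPM. The water mice given morphine lay below the antibiotic mice given morphine and below the water mice given saline without overlap, and the saline groups overlapped.

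In water mice Smg9 fell with morphine (log2 change -0.22 ± 0.054, edgeR adjusted p = 0.0172), and in antibiotic mice it had a change of 0.14 ± 0.054 that did not pass (edgeR adjusted p = 0.0821). The difference between both changes was 0.36 (95% interval 0.21 to 0.52, edgeR adjusted p = 0.0281). It was the only decay gene of 63 (1.59%) past the threshold for this difference, against 0.467% of all genes, and also passed in DESeq2 and limma-voom. Without both libraries of high Malat1 it was 0.36 (edgeR adjusted p = 0.0597). Without any 1 of 10 of the 22 libraries the difference stayed between 0.34 and 0.40 but missed the threshold in edgeR (adjusted p up to 0.0767). These were libraries 1, 3 and 4 of the antibiotic mice given morphine, 2, 5 and 6 of the water mice given morphine, 1 of the antibiotic mice given saline, and 3, 4 and 6 of the water mice given saline. Between both morphine groups Smg9 was 1.27-fold higher in antibiotic mice (0.34 ± 0.056, edgeR adjusted p = 0.000213), and this call held without any 1 of the 10 libraries. The fall in water mice was lost without library 2 or 6 of the water mice given morphine (edgeR adjusted p up to 0.0584). With the length slope as a covariate the change was -0.24 and did not pass (edgeR adjusted p = 0.673), in mice where slope and treatment cannot be told apart.

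Other factors of nonsense-mediated decay moved on their own lines. Upf3b, which links Upf2 to the exon junction complex, had 43.7, 34.9, 39.6, 35.0 and 37.4 CPM in antibiotic mice given morphine and 29.0, 25.8, 25.5, 29.6 and 32.9 CPM in water mice given morphine. It ranged from 24.0 over a median of 31.2 to 34.0 CPM in antibiotic mice given saline and from 22.7 over 23.9 to 30.8 CPM in water mice given saline. The antibiotic mice given morphine lay above the rest. Upf3b was 1.34-fold higher than in water mice given morphine (log2 change 0.42 ± 0.10, edgeR adjusted p = 0.00515) and 1.27-fold higher than in antibiotic mice given saline (0.34 ± 0.096, edgeR adjusted p = 0.0219). The comparison with saline missed the threshold without library 1 or 3 of the antibiotic mice given morphine or library 1 of those given saline (edgeR adjusted p up to 0.0755), and with the length slope as a covariate, where the change was 0.31 (edgeR adjusted p = 0.299).

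Upf3a, the paralog of Upf3b, averaged 35.0 ± 2.43 CPM in water mice given morphine and 39.9 ± 1.93 CPM in water mice given saline (SD, n = 5 and 6), with overlap (log2 change -0.19 ± 0.056, edgeR adjusted p = 0.048). This call was lost without any 1 of 9 of the 11 libraries (edgeR adjusted p up to 0.114), and with the length slope as a covariate the change was -0.16 (edgeR adjusted p = 0.766). Smg5 averaged 182 ± 8.61 CPM in antibiotic mice given morphine and 153 ± 16.2 CPM in water mice given morphine (SD, n = 5 each), 1.19-fold higher (edgeR adjusted p = 0.0218), and missed the threshold without library 3 of the antibiotic mice or library 2, 4 or 6 of the water mice (edgeR adjusted p up to 0.0662). Smg1, the kinase that phosphorylates Upf1, averaged 182 ± 18.3 CPM in antibiotic mice given morphine and 151 ± 21.8 CPM in antibiotic mice given saline (SD, n = 5 and 6; log2 change 0.27 ± 0.085, edgeR adjusted p = 0.0418). This was lost without any 1 of 8 of 11 libraries (edgeR adjusted p up to 0.148), and a change of like size in water mice missed the threshold (0.28 ± 0.085, edgeR adjusted p = 0.0505). With the length slope as a covariate the change in antibiotic mice was 0.047 (edgeR adjusted p = 0.9). Upf1, the helicase at the centre of the pathway, averaged between 109.7 and 120.2 CPM in the 4 groups and did not pass.

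The adaptors Zfp36l1 and Zfp36l2, which bring deadenylases to mRNAs with AU-rich elements, did not pass in any comparison. Zfp36l1 averaged 23.5 ± 2.19 CPM in antibiotic mice given morphine and 19.3 ± 2.4 CPM in water mice given morphine (SD, n = 5 each; log2 change 0.28 ± 0.134, edgeR adjusted p = 0.156). Zfp36l2 averaged between 22.2 and 24.8 CPM in the 4 groups.

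Morphine changes in antibiotic and in water mice rest on separate libraries and could be set side by side. Cnot1, Ttc37 and Smg1 had nearly equal changes in both kinds of mice, and the 95% intervals of the differences ran from -0.10 to 0.14, from -0.28 to 0.11 and from -0.26 to 0.24. Pan2, Dis3 and Edc4 changed more in antibiotic mice by estimate, with differences of 0.44 (95% interval 0.15 to 0.74), 0.37 (0.08 to 0.67) and 0.20 (0.07 to 0.33). None of these differences passed over all genes (edgeR adjusted p = 0.171, 0.268 and 0.156). At an unadjusted p under 0.05 for this difference stood 5 of the 63 genes, where 12.3% of all genes did.

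**Figure D4:**
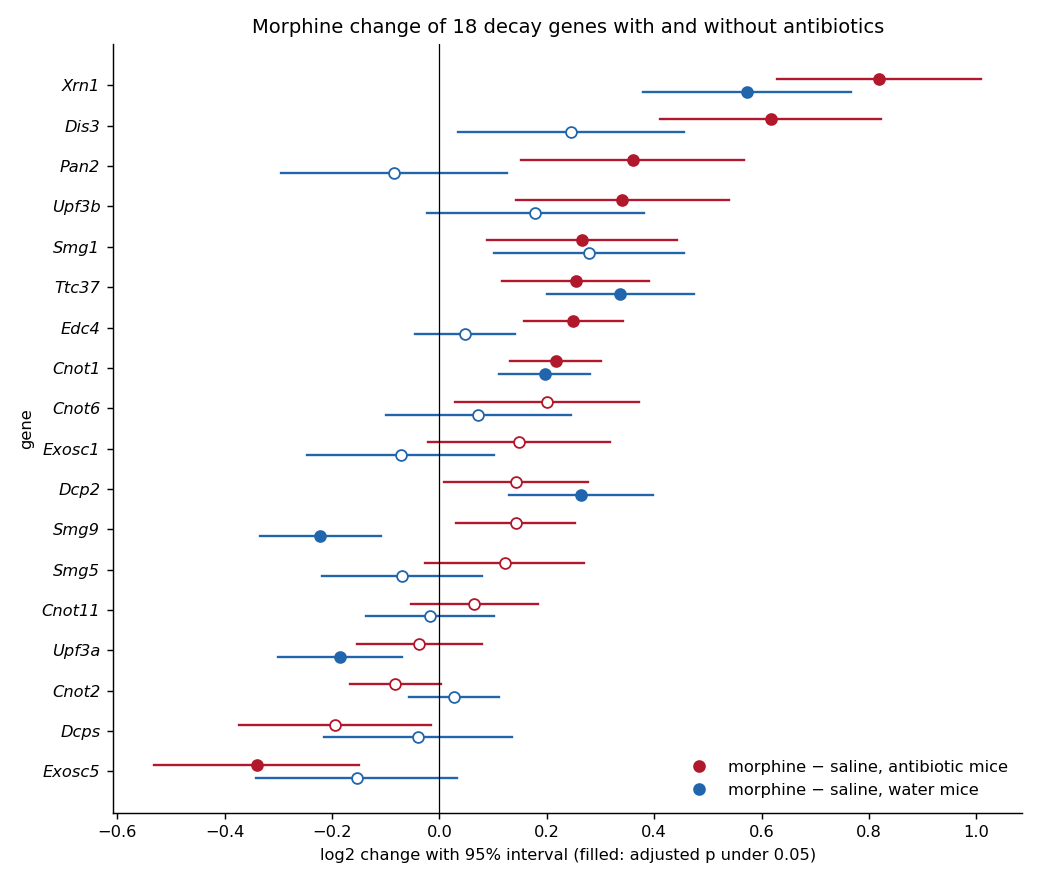
Log2 change with morphine in antibiotic mice (red) and in water mice (blue), with 95% intervals, for the 18 genes past the threshold in at least 1 comparison. Filled points passed at an adjusted p under 0.05. Smg9 lies at 0.14 in antibiotic mice and at -0.22 in water mice, and is the gene whose difference passed.

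The morphine changes of decay genes ran with transcript length. Across the 63 genes the correlation of log2 change with log2 length was r = 0.65 (Spearman rho 0.67) in water mice and 0.49 (0.52) in antibiotic mice, against 0.38 (0.46) and 0.25 (0.29) across 13893 genes. For antibiotics it was 0.25 (0.26) under morphine and 0.45 (0.45) under saline, against 0.02 (0.02) and 0.14 (0.20) across all genes. These are descriptions, since the genes share libraries and scaling. Genes were divided at 2501 and 4212 nt into classes of equal size over all genes. Of the 21 decay genes with long transcripts 7 rose with morphine in antibiotic mice (33.3%, against 12.5% of all long genes), and 4 in water mice (19%, against 10.8%). Of the same 21 genes 6 were higher in antibiotic mice under morphine (28.6%, against 8.78%).

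Libraries as a whole showed this slope. The slope of centred log2 CPM on log2 length averaged 0.0436 ± 0.0114 in antibiotic mice given morphine and -0.0177 ± 0.0362 in antibiotic mice given saline (SD, n = 5 and 6, two-sided exact permutation p = 0.013, adjusted over 40 tests of library measures 0.04). It averaged 0.0384 ± 0.0074 in water mice given morphine and -0.0507 ± 0.0267 in water mice given saline (SD, n = 5 and 6, exact p = 0.00216, adjusted 0.0216), with no overlap, so that slope and treatment cannot be told apart in water mice. Between both morphine groups it differed by less than the spread between libraries (exact permutation p = 0.405). With the slope as a covariate in edgeR 1 decay gene, Xrn1, passed for morphine in antibiotic mice (1.59%, against 0.968% of all genes in that fit) and 0 in water mice, where 0 of all genes passed. The morphine changes of Dis3, Edc4, Pan2, Upf3b and Exosc5 in antibiotic mice, and of Smg9 and Upf3a in water mice, moved by less than 1.5 times and lost their calls. Those of Cnot1 and Ttc37 in both kinds of mice, of Smg1 in antibiotic mice and of Xrn1 in water mice shrank by more than 1.5 times, and that of Dcp2 turned direction. For antibiotics under morphine 12 decay genes passed (19%, against 18.4%), 11 of them shared with the 13 above, and Cnot6 and Exosc5 were lost.

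Changes were also set against the median of genes of like length. With morphine in antibiotic mice Xrn1 lay 0.71 above the median log2 change of its length decile (percentile 99.6 of 1390 genes), Dis3 0.58 above (percentile 98.8 of 1389) and Pan2 0.33 above (percentile 94.6). With morphine in water mice Xrn1 lay 0.40 above (percentile 94.8), Cnot1 0.02 above (percentile 55) and Dcp2 0.09 above (percentile 70.6). For antibiotics under morphine Xrn1, Dis3 and Pan2 lay 0.43, 0.51 and 0.44 above (percentiles 97.3, 97.1 and 95.8). The percentiles describe the genes and carry no test.

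**Figure D5:**
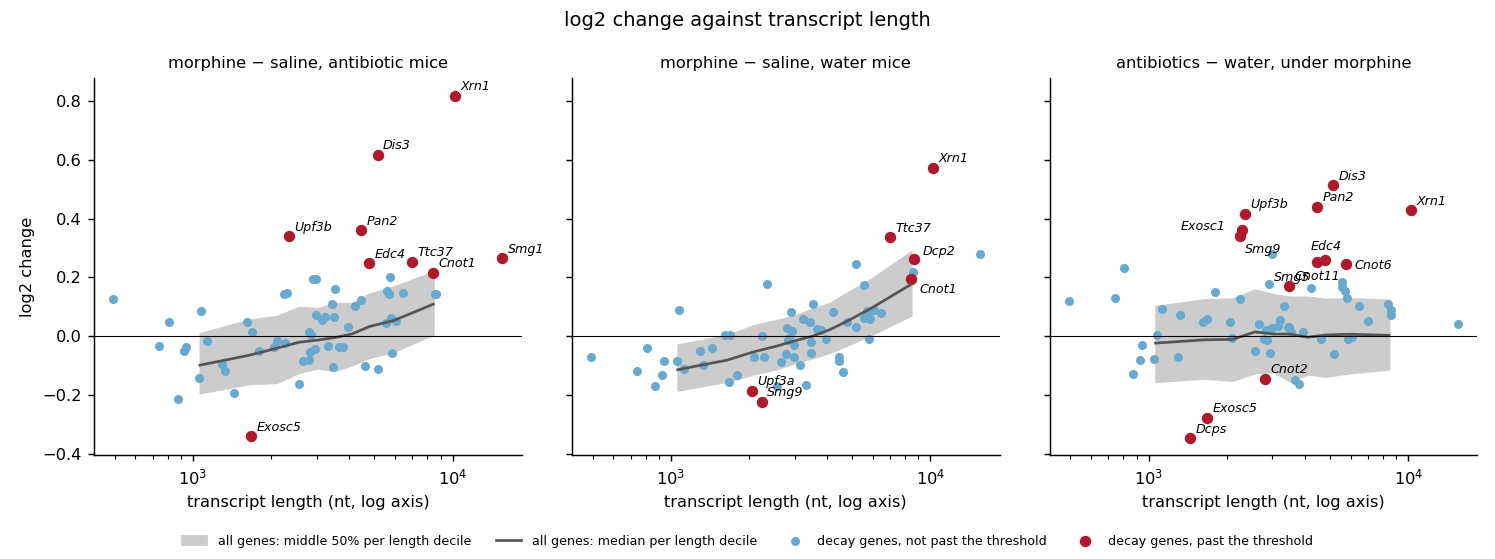
Log2 change (vertical) against transcript length (horizontal, log axis) in 3 comparisons, for the decay genes past the threshold (red, named) and not past it (blue), over the median (line) and middle 50% (grey band) of all genes in 10 length classes. The grey line climbs with length in both morphine panels and stays level for antibiotics under morphine, and Xrn1 lies above the band in each, at 0.82, 0.57 and 0.43.

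Markers of other cell types also differed between the groups. The summed level of 10 microglia genes ranged from 414 to 485 CPM in antibiotic mice given morphine, 523 to 590 in water mice given morphine, 490 to 593 in antibiotic mice given saline and 611 to 662 in water mice given saline. Its ratio was 0.812 for antibiotics under morphine, 0.831 for antibiotics under saline, and 0.845 and 0.865 with morphine in antibiotic and in water mice. All 4 differences were larger than the spread between libraries (exact permutation p = 0.00794, 0.00216, 0.00433 and 0.00216, adjusted over 40 tests 0.0289, 0.0216, 0.0216 and 0.0216). The sum of 6 genes of oligodendrocyte precursors had ratios of 0.781 for antibiotics under morphine, 0.878 for antibiotics under saline and 0.863 with morphine in antibiotic mice (exact permutation p = 0.00794, 0.00433 and 0.00649, adjusted 0.0289, 0.0216 and 0.0289), and 0.97 with morphine in water mice (exact permutation p = 0.297). The sum of 10 genes of mature oligodendrocytes had a ratio of 0.852 for antibiotics under saline and 0.873 with morphine in water mice (exact permutation p = 0.00216 and 0.00433, adjusted 0.0216 each). That of 8 endothelial genes had ratios of 0.883 and 0.887 in these comparisons (exact permutation p = 0.0108 and 0.00433, adjusted 0.0361 and 0.0216), and neither sum passed in the other 2 comparisons. The sums of 8 astrocyte genes and of 10 striatal projection neuron genes had ratios of 0.96 and 0.982 for antibiotics under morphine (exact permutation p = 0.183 and 0.849), and did not pass in any comparison. None of the markers was at 0 over all libraries, and the part of these shifts in the changes of decay genes was not tested.

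Genes that work beside the machinery gave a further view, with 82 of 84 listed partners tested. With morphine in water mice 6 rose and 0 fell (7.32%, against 6.58% of all genes), and these 6 were all among the 10 miRNA silencing factors. Of all genes with long transcripts 10.8% passed as higher in this comparison, and the partners were not set against genes of like length. All 6 calls were lost with the length slope as a covariate, where slope and treatment cannot be told apart. Ago2, the Argonaute that cleaves targets paired with a small RNA, averaged 124 ± 11.8 CPM in water mice given morphine and 85.5 ± 9.2 CPM in water mice given saline (SD, n = 5 and 6; log2 change 0.54 ± 0.109, edgeR adjusted p = 0.00734). Tnrc6a, a scaffold that ties Argonaute to CCR4-NOT, averaged 109.5 ± 7.44 CPM with morphine and 88.9 ± 3.52 CPM with saline there (0.30 ± 0.068, edgeR adjusted p = 0.0113), and neither gene's groups overlapped. Ago3, another Argonaute, had a change of 0.54 ± 0.129 (edgeR adjusted p = 0.0152), and Ago1, Tnrc6b and Tnrc6c also rose.

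With morphine in antibiotic mice 8 partners rose and 5 fell (15.9%, against 13.0%). Dicer1, which cuts miRNA precursors, averaged 93.7 ± 9.4 CPM in antibiotic mice given morphine and 72 ± 4.11 CPM in antibiotic mice given saline (SD, n = 5 and 6; 0.38 ± 0.057, edgeR adjusted p = 0.000308). Tnrc6c rose (0.35 ± 0.073, edgeR adjusted p = 0.0034) and Elavl3, a neuronal protein that stabilises AU-rich mRNAs, fell (-0.18 ± 0.04, edgeR adjusted p = 0.0042), again without overlap. For antibiotics under morphine 8 partners were higher and 6 lower (17.1%, against 18.0%). Nbas, known from human cells as a factor of nonsense-mediated decay, averaged 60.7 ± 4.48 CPM in antibiotic mice given morphine and 79.5 ± 1.47 CPM in water mice given morphine (SD, n = 5 each; -0.39 ± 0.047, edgeR adjusted p = 6.51e-06). Samd4, a Smaug protein, known in Drosophila to recruit deadenylases (-0.49 ± 0.09, edgeR adjusted p = 0.00061), and Skiv2l2, the helicase of the nuclear exosome (-0.29 ± 0.058, edgeR adjusted p = 0.00129), were lower too, each without overlap.

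Nbas was also the partner whose morphine change differed between antibiotic and water mice (difference -0.29 ± 0.064, edgeR adjusted p = 0.0379), opposite in sign to that of Smg9. It was the only partner of 82 past the threshold for this difference (1.22%, against 0.467% of all genes). The call was lost without a low-count filter, with the replicate block and without both libraries of highest Malat1. Leaving out some single libraries also ended it. Rbm7, an adaptor of the nuclear exosome, came next with a difference of 0.37 ± 0.115, and then Samd4 with -0.38 ± 0.123, neither past the threshold (edgeR adjusted p = 0.152 and 0.179). Under saline 0 of 82 partners passed in edgeR, against 1.41% of all genes, 0 in limma-voom and 1 in DESeq2. At an unadjusted p under 0.05 in edgeR stood 14 partners, where 17.3% of all genes did. The smallest p there belonged to Tnrc6c, Samd4b, another Smaug protein, and Tnrc6a, with log2 changes of 0.24, 0.19 and 0.21 for antibiotics (edgeR adjusted p = 0.0888, 0.0946 and 0.0981).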

How the data were processed

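RNA of the nucleus accumbens was sequenced in 22 libraries, made per the labels' protocols from TRIzol-extracted total RNA with a SMARTer cDNA kit and sonication. The submitters' processing notes name FastQC, STAR 2.4.0 and edgeR. Genome build, annotation and strand setting are not stated in the labels or headers. The deposited values are raw counts per gene, 1 column per library, as the authors left them. Summary rows that name no gene held 20.6% to 26.4% of each library's counts and were left out. No library pair within a group agreed within sampling noise. The members and gene lists were chosen with earlier results of these data known.

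Counts were tested with edgeR's quasi-likelihood test (edgeR 4.0.16, R 4.3.3) after filterByExpr and TMM scaling, in a single fit of all 4 groups with no covariate. Each p was Benjamini-Hochberg adjusted over 14564 genes, with a threshold of 0.05. Errors are SE for log2 changes and SD for levels, and the length slope used log2 CPM with a prior count of 2. In counts simulated for 14463 genes on these libraries, 42% of genes changed 1.25-fold were recovered, 72% at 1.5-fold and 94% at 2-fold. Alternatives were other scalings and filters, DESeq2 1.42.0, limma-voom (limma 3.58.1), a replicate block, length slope as a covariate, leaving out each library and, chosen after seeing the data, leaving out both libraries with the highest Malat1. Transcript lengths and exon overlaps came from GENCODE M21, and library measures were compared by two-sided exact permutation tests. Named genes are all members past the threshold, the member with the smallest p or highest level of each complex, and the 3 partners with the smallest p per comparison. Further members were named after their values were seen.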

Additional observations from a re-analysis of the deposited data

Results flagged for a closer look

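The morphine change of Smg9 in antibiotic mice minus that in water mice was 0.36 on the log2 scale, the difference itself having passed edgeR's quasi-likelihood test (adjusted p = 0.0281). Of 252 sets of a gene and a group examined, 8 held 1 library far from the others by Dixon's criterion, which chance gives in about 1 in 20 sets. Cnot3 had 54.0 CPM in library 6 of the antibiotic mice given saline, the library with the highest Malat1, against 41.4 to 43.3 CPM in the others. Lsm6 had 38.3 CPM in library 3 of that group, below 43.0 to 44.4 CPM. In antibiotic mice given morphine, Ddx6 had 216 CPM in library 4, below 224 to 226 CPM, and Exosc3 had 8.66 CPM in library 5, above 7.21 to 7.52 CPM. In water mice given saline, Cnot1 had 124 CPM in library 8, below 135 to 139 CPM, and Exosc9 had 25.6 CPM in library 5, below 29.0 to 30.3 CPM. In the same group library 6 stood high for Exosc4, with 29.4 CPM above 24.9 to 26.3 CPM, and for Smg1, with 169 CPM above 135 to 147 CPM.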

How the results depend on the processing

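Counts of decay genes stayed within 1.5 times under RLE and upper quartile scaling, no low-count filter and a mean CPM of at least 1. They did so too in DESeq2, limma-voom and fits of only the compared groups. Single calls were still lost in at least 1 of these settings. Among them were calls near the threshold (Upf3a, Smg1, Cnot11, Cnot6 and Exosc5). Pan2 and Ttc37 also lost their calls for morphine in antibiotic mice in a fit of those groups alone. Partner genes moved to 13 with morphine in water mice and 1 for antibiotics under saline in DESeq2, to 8 with morphine in antibiotic mice in a fit of those groups, and to 0 for the difference of morphine changes without a low-count filter. At an adjusted p under 0.1, decay genes numbered 1 for antibiotics under saline and 20 under morphine, and partners 14 with morphine in water mice and 3 for antibiotics under saline, a looser threshold by construction.

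With the length slope as a covariate, decay genes numbered 0 with morphine in water mice and 1 in antibiotic mice, and partners 0 and 0. The Dcp2 change with morphine in water mice reversed to -0.029. In water mice the slope does not overlap between the groups. Without the 2 libraries of highest Malat1, chosen after seeing the data, 0 decay genes and 0 partners passed for the difference of morphine changes. The cause was not tested.

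Leaving out each library in turn gave 5 to 11 decay genes with morphine in antibiotic mice, 4 to 7 in water mice, 8 to 14 for antibiotics under morphine, 0 for antibiotics under saline and 0 to 1 for the difference. Partners ranged from 7 to 16, 4 to 9, 9 to 15, 0 to 1 and 0 to 1 in that order. The lowest partner counts in antibiotic mice came without library 3 given morphine or library 1 given saline (8 without library 1 given morphine or library 5 given saline), the 1 partner for antibiotics under saline without library 1 of the antibiotic mice given saline, and the lowest under morphine without library 1 of the antibiotic mice given morphine.

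The replicate numbers showed no clear pairing of the libraries, but 4 or 5 same-numbered pairs per comparison are too few to exclude it. The mean correlation of same-numbered deviations was 0.142 for antibiotics under saline and between -0.042 and 0.0041 in the other comparisons. Correlations of same-numbered deviations ran from -0.478 to 0.353, and in each comparison at most 2 libraries correlated best with their own number. A fit with the replicate block gave 4 decay genes with morphine in water mice, 9 in antibiotic mice, 10 for antibiotics under morphine and 0 for the difference, with 3 partners in water mice, 8 in antibiotic mice, 1 for antibiotics under saline and 0 for the difference. In simulated counts at this depth and group size, 72% of genes changed 1.5-fold were recovered.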
